A study of Mus musculus with 2 samples.

Results

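Tex genes are mouse genes that were named for being expressed in the testis, and they share the symbol and not a protein family. All symbols made of Tex and a number, with or without a version suffix, were taken from the gene lists of both libraries, apart from Tex12 and Tex101. This gave 32 genes among 30052 symbols, on 13 chromosomes. The study compared adult Nsun7 knockout (KO) mice with adult wild-type (WT) mice by single-cell RNA sequencing of dissociated whole testis, with 1 library for each genotype. NSUN7 belongs to a family of RNA cytosine methyltransferases, and the study's title gives it a role in assembly of the sperm flagellum. The labels give neither the deleted part of Nsun7, the strain, the exact age nor the number of mice behind a library.

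Spermatogenesis runs from dividing spermatogonia through meiotic spermatocytes to round spermatids, which then elongate, replace histones by transition proteins and protamines, and build the flagellum. The X chromosome is silenced during the long pachytene stage of male meiosis. Transcription stops as the spermatid nucleus condenses, so late spermatids draw on stored transcripts. Among the Tex genes with known roles, Tex11, Tex14, Tex15 and Tex19.1 act around meiosis, whereas the products of Tex33, Tex37 and Tex43 are found inside the doublet microtubules of the sperm flagellum.

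The KO library held 16837 barcodes and 210531446 counts, and the WT library held 16376 barcodes and 220247156 counts. After filtering, 13869 KO and 15139 WT cells were kept, with medians of 12020 counts per KO cell and 8723 counts per WT cell. Cells were clustered without the Tex genes and Nsun7, and 6 germ cell stages were named from markers. Spermatogonia numbered 583 in KO and 1376 in WT, early spermatocytes 314 in KO and 763 in WT, and late spermatocytes 548 in KO and 2816 in WT. Round spermatids numbered 524 in KO and 1358 in WT. Elongating spermatids were split by their level of Tnp1, a transition protein gene, into a Tnp1-high stage with 6282 KO and 2715 WT cells and a Tnp1-low stage with 2302 KO and 2267 WT cells. Of the stage markers, at least 10 CPM was reached by all detected genes in each library, except Nanos3 in KO spermatogonia. Among the elongating clusters, 3 were nearly all KO cells (1496 KO and 88 WT, 1865 KO and 44 WT, 1719 KO and 34 WT) and 1 was nearly all WT cells (51 KO and 1436 WT). In all, 2168 barcode names occurred in both libraries, but the names are index numbers and do not show shared cells. Nsun7 itself stood at 41.8 CPM in KO and 218 CPM in WT round spermatids, and at 52.0 CPM in KO and 216 CPM in WT late spermatocytes, so its transcript was lower in KO but not absent.

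Levels are given as CPM, the counts of a gene per 1000000 counts of the same stage and library, with 95% exact Poisson intervals where an interval is shown. Folds are KO over WT with 95% exact conditional binomial intervals. With 1 library per genotype there was no test across samples, and the intervals cover counting error only. Counts were not divided by transcript length, so levels are compared between stages and libraries of the same gene, not between genes.

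Expression of the Tex genes was spread over the whole of germ cell development. Of the 32 genes, 31 reached a mean of 50 CPM over both libraries in at least 1 germ stage. The exception was the X-linked Tex28, whose highest level was 3.53 CPM in KO and 3.78 CPM in WT Tnp1-high spermatids. By the mean of both libraries, 3 of these 31 genes were highest in spermatogonia, 6 in early spermatocytes, 2 in late spermatocytes, 11 in round spermatids, 6 in Tnp1-high and 3 in Tnp1-low elongating spermatids. The stage of the highest level was the same in both libraries for 30 of the 31 genes. The remaining gene was Tex10, whose product works with the PELP1 complex in nucleolar ribosome biogenesis. Its highest level was in spermatogonia in KO, at 190 CPM (178 to 202), and in early spermatocytes in WT, at 189 CPM (176 to 203). In each library the Tex10 intervals of these stages overlapped.

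**Figure D1:**
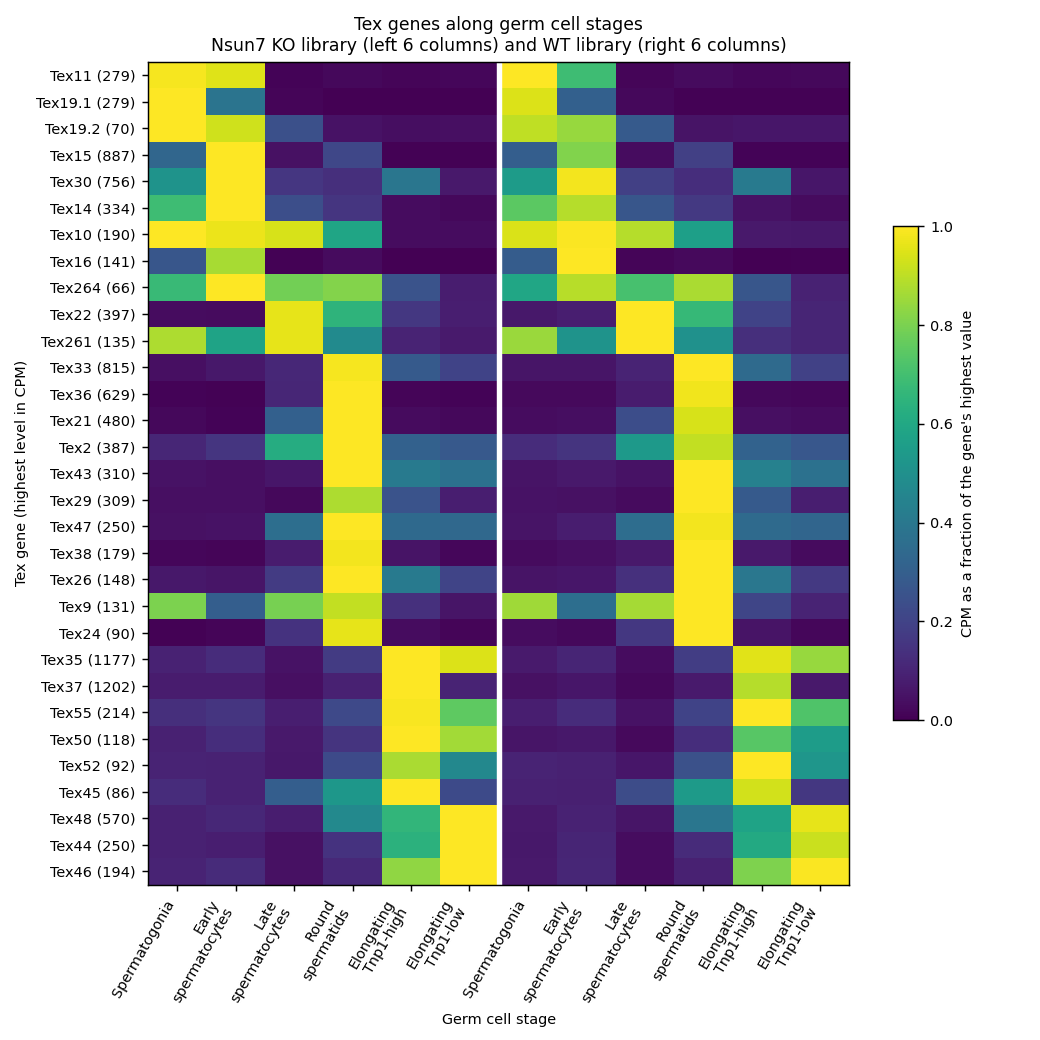
Level of 31 Tex genes (rows; highest CPM of each gene in brackets) in 6 germ cell stages of the Nsun7 KO library (left columns) and the WT library (right columns), as a fraction of the gene's highest value. The bright cells form the same staircase from spermatogonia to Tnp1-low spermatids in both libraries.

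The median number of CpG dinucleotides in the promoter differed between early and late Tex genes, although single genes of the groups overlapped. Stretches before the start of 5 genes, chosen to show this contrast, are given. Promoter windows of 300 bases, from 250 before to 50 after the start, were found in the RefSeq table (build GRCm38.p6) for 26 of the 32 genes. The stretches below are the 250 bases before the start, written 5′ to 3′ on the gene's strand with each CpG in capitals, and none overlaps an exon of the GENCODE M21 annotation. Tex30 and Tex19.1 are highest in early spermatocytes and spermatogonia, Tex38 in round spermatids, and Tex45 and Tex50 in Tnp1-high spermatids.
Tex30, chr1:44102442-44102691, minus strand: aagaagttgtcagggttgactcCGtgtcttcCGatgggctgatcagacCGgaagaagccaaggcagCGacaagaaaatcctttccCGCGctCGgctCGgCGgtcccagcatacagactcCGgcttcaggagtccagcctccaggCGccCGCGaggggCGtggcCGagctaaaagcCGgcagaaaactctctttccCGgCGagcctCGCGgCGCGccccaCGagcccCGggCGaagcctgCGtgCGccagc
Tex19.1, chr11:121145893-121146142, plus strand: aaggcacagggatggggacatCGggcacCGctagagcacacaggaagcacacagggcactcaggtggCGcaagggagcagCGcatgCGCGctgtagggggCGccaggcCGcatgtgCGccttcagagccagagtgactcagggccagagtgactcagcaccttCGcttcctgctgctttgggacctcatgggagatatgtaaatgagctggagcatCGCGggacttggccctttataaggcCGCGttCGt
Tex38, chr4:115781035-115781284, minus strand: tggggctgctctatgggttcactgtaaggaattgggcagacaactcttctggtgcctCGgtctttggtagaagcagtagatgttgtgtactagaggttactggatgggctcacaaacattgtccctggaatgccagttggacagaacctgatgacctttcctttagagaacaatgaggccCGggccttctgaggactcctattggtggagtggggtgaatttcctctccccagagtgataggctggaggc
Tex45, chr8:3470612-3470861, plus strand: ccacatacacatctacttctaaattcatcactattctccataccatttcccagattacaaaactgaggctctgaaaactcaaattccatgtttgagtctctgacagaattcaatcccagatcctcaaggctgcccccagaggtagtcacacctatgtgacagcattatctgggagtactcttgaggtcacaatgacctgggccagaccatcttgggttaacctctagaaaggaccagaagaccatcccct
Tex50, chr1:161159315-161159564, minus strand: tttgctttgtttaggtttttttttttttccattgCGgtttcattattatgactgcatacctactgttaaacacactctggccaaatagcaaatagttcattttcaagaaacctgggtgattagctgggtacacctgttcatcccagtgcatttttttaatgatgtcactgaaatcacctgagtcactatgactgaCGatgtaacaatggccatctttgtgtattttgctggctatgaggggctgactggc

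These stretches held 27 CpG for Tex30, 15 for Tex19.1, 2 for Tex38, 0 for Tex45 and 2 for Tex50. Over whole windows, the median was 20 CpG for the 7 matched genes highest in spermatogonia or early spermatocytes, 3 for 9 genes highest in round spermatids and 4 for 8 genes highest in elongating spermatids, beside a median of 7 over the windows of all 27025 genes. The groups overlapped. Tex19.2 and the X-linked Tex16, both early genes, had 2 and 0 CpG, and Tex2, Tex9 and Tex26, highest in round spermatids, had 41, 17 and 15. Every elongating gene with a window had at most 5.

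**Figure D2:**
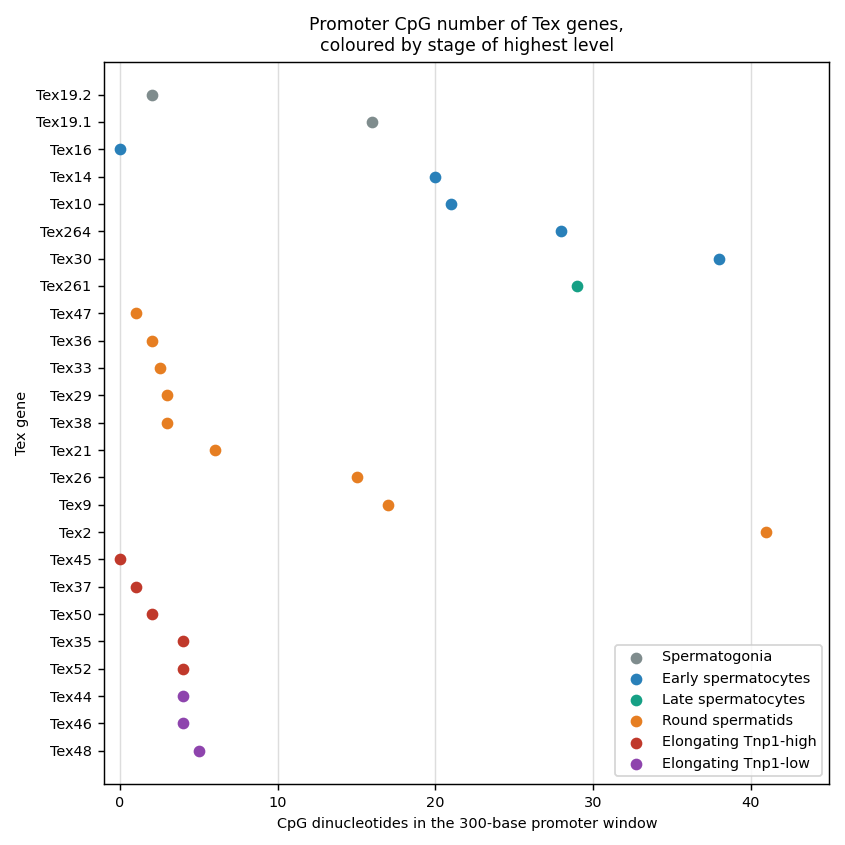
Number of CpG dinucleotides in the 300-base promoter window (horizontal axis; median where a gene has several windows) of 25 Tex genes, grouped and coloured by the stage of their highest level. The 8 genes highest in elongating spermatids lie between 0 and 5, while the early genes spread from 0 to 38.

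The letters GTTGCC, part of the X-box bound by RFX factors, occurred on either strand in the windows of 6 of the 26 genes (23.1%), against 14.1% of all genes. The palindrome TGACGTCA, the full cyclic AMP response element, was in none of the 26, against 2.03% of all genes, and its part TGACG was in 4 genes (15.4%), against 23.0% of all genes. The E-box letters CACGTG were in 2 genes (7.69%), against 8.09% of all genes. The longer letters GTTGCCATG, which contain GTTGCC, were in 1 gene, Tex33. The last 60 bases before the Tex33 start are shown for this match, with the reverse complement of GTTGCC in capitals, 36 bases before the start.
Tex33, chr15:78395913-78395972, minus strand: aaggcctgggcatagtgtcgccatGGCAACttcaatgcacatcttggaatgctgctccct

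The spermatogonial genes were Tex11, Tex19.1 and Tex19.2. Tex19.1, which restrains retrotransposons and binds the ubiquitin ligase UBR2, stood at 279 CPM in KO and 264 CPM in WT spermatogonia. It was at 107 CPM in KO and 85.7 CPM in WT early spermatocytes, and at 3.83 CPM in KO and 5.44 CPM in WT late spermatocytes. Its close copy Tex19.2 lies 27465 bases away on chromosome 11, and reads that match both copies could have been split between them. Tex19.2 stood at 69.8 CPM in KO and 63.1 CPM in WT spermatogonia, and at 40.4 CPM in KO and 89.1 CPM in WT Sertoli-like cells, the somatic cells that nurse the germ line. Tex19.1 was at 2.56 CPM in KO and 3.91 CPM in WT Sertoli-like cells. The Sertoli-like class joined 2 unlike clusters whose mix differed between the libraries. The larger had 742 KO and 699 WT cells and 38138 CPM of Tnp1. The smaller had 18 KO and 102 WT cells and 3065 CPM of Tnp1.

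Tex11 and Tex16, both on the X chromosome, had high levels in early spermatocytes and almost no counts in late spermatocytes. Tex11, which promotes crossovers in meiosis, stood at 276 CPM (262 to 291) in KO and 279 CPM (269 to 290) in WT spermatogonia. In early spermatocytes it was at 265 CPM (244 to 288) in KO and 192 CPM (179 to 206) in WT, a fold of 1.38 (1.24 to 1.54). In late spermatocytes it was at 2.98 CPM in KO and 3.40 CPM in WT, close to its levels of 2.77 CPM in KO and 3.37 CPM in WT Leydig-like cells, the steroid-producing somatic cells outside the tubules. Tex16 showed the same pattern, with 123 CPM in KO and 141 CPM in WT early spermatocytes and 1.06 CPM in KO and 1.83 CPM in WT late spermatocytes. Tex16 overlaps the gene Gm45194 on the same strand, so the counts of the 2 genes may not be separable.

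Tex15 was high in early spermatocytes, low in late spermatocytes and higher again in round spermatids. TEX15 takes part in the piRNA-guided DNA methylation of transposons in the fetal male germ line, and mice without it are sterile. It was at 292 CPM in KO and 267 CPM in WT spermatogonia, and at 887 CPM (848 to 927) in KO and 718 CPM (692 to 744) in WT early spermatocytes. Late spermatocytes had 39.1 CPM in KO and 30.0 CPM in WT. Round spermatids were again higher than late spermatocytes in both libraries, with 189 CPM in KO and 168 CPM in WT. Within late spermatocytes the clusters differed. A Piwil1-led cluster had 3.86 CPM in KO and 4.91 CPM in WT of Tex15, while another cluster had 98.96 CPM in KO and 89.7 CPM in WT. After thinning each cell to 1000 counts, 50% of KO and 43.9% of WT early spermatocytes had a Tex15 count, against 0.278% of KO and 0.597% of WT Leydig-like cells. Without thinning the shares were 80.6% in KO and 71.8% in WT early spermatocytes, at median depths of 4724.5 counts in KO and 3660 counts in WT. The unthinned Leydig-like shares were 3.61% in KO and 8.36% in WT, at median depths of 14100 counts in KO and 10473 counts in WT.

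Other genes of the early group kept more of their level in later stages. Tex14, which is needed to keep the intercellular bridges between germ cells, stood at 334 CPM (311 to 359) in KO and 297 CPM (280 to 314) in WT early spermatocytes, and at 80.1 CPM in KO and 89.6 CPM in WT late spermatocytes. Tex30 had a second high. It was at 756 CPM in KO and 743 CPM in WT early spermatocytes, 101 CPM in KO and 100.2 CPM in WT round spermatids, and 297 CPM in KO and 310.2 CPM in WT Tnp1-high spermatids. Tex264, an autophagy receptor for the endoplasmic reticulum, was also counted outside the germ line. It was at 66.5 CPM in KO and 59.4 CPM in WT early spermatocytes, below its levels of 103 CPM in KO and 93.9 CPM in WT Leydig-like cells.

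The genes highest in late spermatocytes were Tex22 and Tex261. Tex22 stood at 382 CPM in KO and 397 CPM in WT late spermatocytes, a fold of 0.961 (0.928 to 0.995), and remained at 258 CPM in KO and 267 CPM in WT round spermatids. Tex261, related to a yeast protein of early secretory membranes, stood at 129.9 CPM in KO and 135 CPM in WT late spermatocytes. Its Leydig-like levels were 85.9 CPM in KO and 93.5 CPM in WT, which are of the same order.

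**Figure D3:**
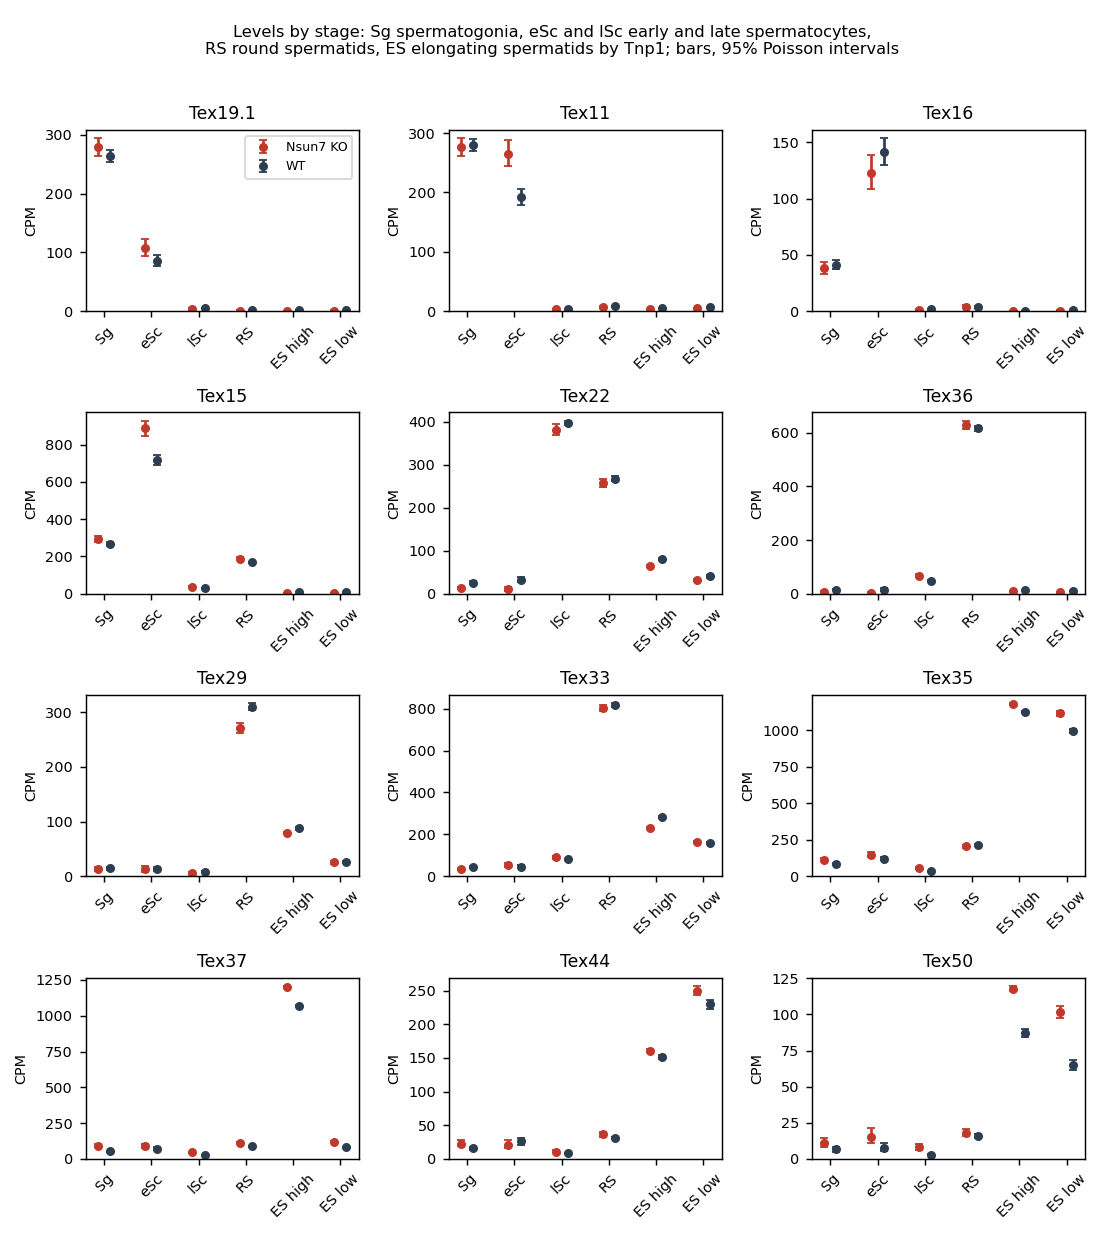
Level in CPM (vertical axis, linear) of 12 Tex genes in 6 germ cell stages (horizontal axis) of the Nsun7 KO (red) and WT (dark) libraries, with 95% Poisson intervals of counting error. Tex11 and Tex16 are near 0 in late spermatocytes, Tex36 is high in round spermatids, and the KO points of Tex50 lie above the WT points in both elongating stages.

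Round spermatids held the largest group, of 11 genes. Tex36 was the most concentrated, with 629 CPM (615 to 643) in KO and 616 CPM (607 to 624) in WT round spermatids. This was 87.0% in KO and 85.5% in WT of its level summed over the 6 stages. Tex38 and Tex24 followed, with shares of 84.7% in KO and 80.8% in WT for Tex38 and 81.6% in KO and 77.7% in WT for Tex24. TEX38 works with the palmitoyl transferase ZDHHC19 in shaping the sperm head. It stood at 175 CPM in KO and 179 CPM in WT, and Tex24 at 86.4 CPM in KO and 89.7 CPM in WT.

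Tex33 and Tex43 encode flagellar doublet microtubule proteins and were still counted after the round stage. Tex33 stood at 803 CPM (787 to 819) in KO and 815 CPM (805 to 825) in WT round spermatids, and at 163 CPM in KO and 159 CPM in WT Tnp1-low spermatids. Tex43 stood at 310.2 CPM in KO and 310.4 CPM in WT round spermatids, and at 115 CPM in KO and 116 CPM in WT Tnp1-low spermatids. Round spermatids fell into 2 clusters. The smaller one, with the higher Tnp1 level, had 1507 CPM in KO and 1411 CPM in WT of Tex33. In the larger cluster Tex33 was at 670 CPM in KO and 652 CPM in WT. Tex29 differed more between the same clusters, with 671 CPM in KO and 718 CPM in WT in the smaller and 196 CPM in KO and 198 CPM in WT in the larger. Tex36 went the other way, with 433 CPM in KO and 521 CPM in WT in the smaller cluster and 666 CPM in KO and 641 CPM in WT in the larger.

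Tex2 and Tex9 were present over a wider range of stages. Tex2, an endoplasmic reticulum protein with a lipid-binding domain, stood at 387 CPM in KO and 351 CPM in WT round spermatids, and at 239 CPM in KO and 209 CPM in WT late spermatocytes. Tex9 stood at 119 CPM in KO and 131 CPM in WT round spermatids, and at 105 CPM in KO and 112 CPM in WT spermatogonia. The other genes of the round group were Tex21 (480.3 CPM in KO and 450.3 CPM in WT), Tex26 (148 CPM in KO and 147 CPM in WT) and Tex47 (249.8 CPM in KO and 246 CPM in WT). Tex29 itself was at 271 CPM in KO and 309 CPM in WT round spermatids as a whole, a fold of 0.876 (0.841 to 0.912).

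The elongating genes separated by whether their transcripts were still counted once Tnp1 was low. Tex37, whose product lies inside the flagellar doublets, stood at 1202 CPM in KO and 1068 CPM in WT Tnp1-high spermatids, and at 120.1 CPM in KO and 80.4 CPM in WT Tnp1-low spermatids. Tex35 differed little between the stages, with 1177 CPM in KO and 1123 CPM in WT Tnp1-high and 1114 CPM in KO and 996 CPM in WT Tnp1-low spermatids. Tex45 behaved like Tex37, with 85.8 CPM in KO and 79.8 CPM in WT Tnp1-high and 19.102 CPM in KO and 13.8 CPM in WT Tnp1-low spermatids. Thinned to 1000 counts, 69.1% of KO and 65.3% of WT Tnp1-high cells had a Tex35 count, against 6.67% of KO and 6.27% of WT Leydig-like cells. The unthinned Tex35 shares were 98.7% in KO and 98.9% in WT Tnp1-high cells and 45.6% in KO and 39.1% in WT Leydig-like cells. The median depth of Tnp1-high cells was 17434 counts in KO and 16058 counts in WT.

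Tex55, which encodes a protein that binds protein kinase A, stood at 212 CPM in KO and 214 CPM in WT Tnp1-high spermatids. Tex52 stood at 80.0 CPM in KO and 91.8 CPM in WT in the same stage, a fold of 0.872 (0.842 to 0.902). Tex52 shares bases with the genes Foxm1 and Gm44596 on its own strand. Tex44, Tex46 and Tex48 were highest at the Tnp1-low stage. Tex48 stood there at 569.7 CPM in KO and 548 CPM in WT, Tex44 at 249.96 CPM in KO and 229 CPM in WT, and Tex46 at 194 CPM in KO and 193 CPM in WT. Within that stage Tex44 and Tex48 were highest in the only large cluster that both libraries filled about equally (755 KO and 743 WT cells). There Tex44 was at 476 CPM in KO and 339 CPM in WT, and Tex48 at 782 CPM in KO and 792 CPM in WT.

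In the stage where each gene was highest, KO and WT levels lay close together. None of the 31 genes was 1.5-fold higher or lower in KO in that stage as clustered here. Clustering each library separately ended this for 5 round spermatid genes. Their log2 ratios were -0.87 for Tex36, -0.85 for Tex38, -0.81 for Tex21, -0.72 for Tex9 and -0.72 for Tex24. Over all genes in round spermatids of that setting, 1426 of 3654 were lower and 572 higher past 1.5-fold. In that setting, round spermatids of KO included a cluster of 711 cells at 49008 CPM of Tnp1. A WT cluster of 608 cells at 43211 CPM was named Tnp1-high, so the stage name did not cover like cells in both libraries. A stricter cell filter (500 genes, 10% mitochondrial counts) gave log2 ratios of -0.63 for Tex10 and -0.59 for Tex16. Scaling by the trimmed mean of all genes gave 0.80 for Tex50. The folds ran from 0.869 (0.749 to 1.01) for Tex16 to 1.35 (1.31 to 1.396) for Tex50. After Tex50 the highest were Tex15 at 1.24 (1.17 to 1.31), Tex14 at 1.13 (1.03 to 1.24) and Tex37 at 1.13 (1.11 to 1.14). Under the stricter cell filter the log2 ratio turned to -0.31 for Tex15, against 0.30 as reported, and to -0.51 for Tex14, against 0.17. The cluster named early spermatocytes under that filter had 37.5% called doublets and 24094 CPM of Tnp1. The early spermatocyte cluster as reported had 1.58% called doublets and 4431 CPM of Tnp1. After Tex16 the lowest were Tex52 and Tex29, given above, and Tex9 at 0.907 (0.853 to 0.963).

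**Figure D4:**
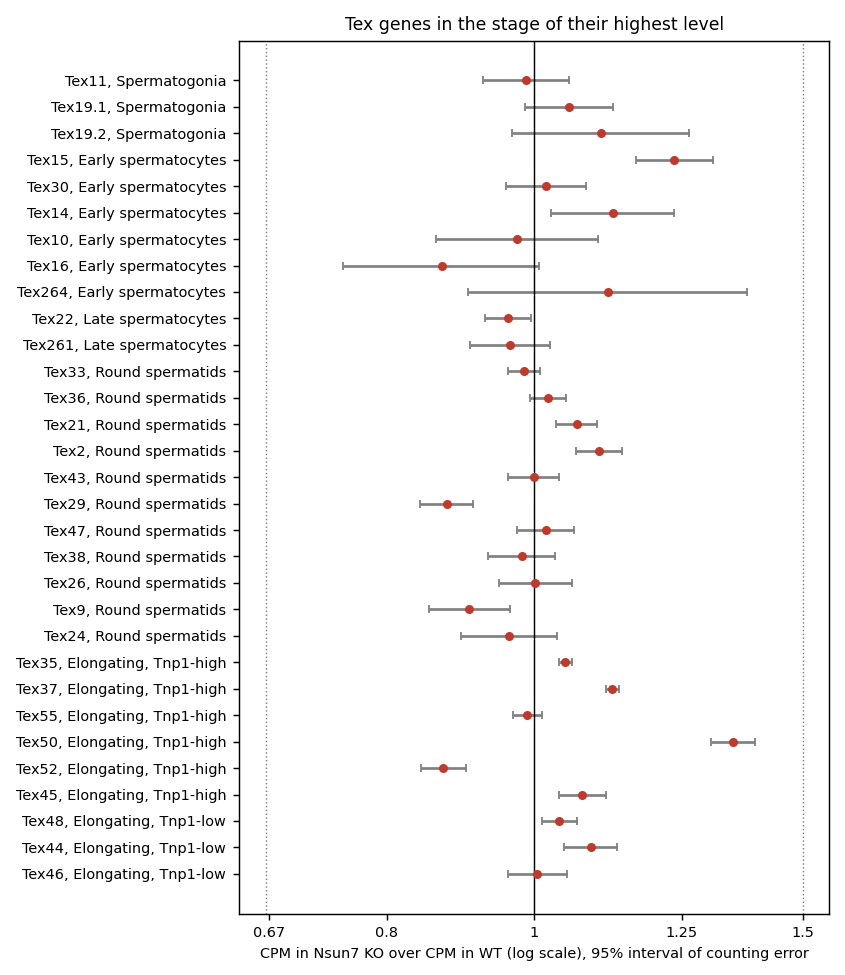
KO level over WT level (log axis) of 31 Tex genes, each in the stage of its highest level, with 95% intervals of counting error; the dotted lines mark 1.5-fold in each direction. All points lie between the dotted lines, with Tex50 farthest to the right.

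Among Tex genes with a mean level of at least 50 CPM in a stage, those past 1.5-fold were Tex37 in spermatogonia and Tex50 in Tnp1-low spermatids, both higher in KO. For these counts 5 CPM was added to both levels. In spermatogonia 1 of 11 Tex genes was higher and 0 lower, against 1.03% of 4354 genes higher and 0.666% lower. In early spermatocytes 0 of 14 passed, against 0.755% of all 4372 genes higher and 2.61% lower. Late spermatocytes had 0 of 11, against 1.26% of 3741 genes higher and 0.0535% lower. Round spermatids had 0 of 21, against 0.0526% of 3803 genes higher and 0.0263% lower. Tnp1-high spermatids had 0 of 17, against 0.0% of 1999 genes higher and 2.85% lower. Tnp1-low spermatids had 1 of 11 higher and 0 lower, against 0.257% of 1555 genes higher and 2.25% lower. At these numbers of Tex genes, a count of 0 or 1 does not separate them from the background.

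The median log2 ratio of KO over WT was 0.08 for the Tex genes in spermatogonia, against -0.03 over all genes, and 0.17 in early spermatocytes, against 0.00 over all genes. It was 0.02 in late spermatocytes, against -0.01, and 0.00 in round spermatids, against 0.00. It was -0.01 in Tnp1-high spermatids, against -0.02, and 0.05 in Tnp1-low spermatids, against 0.01. The trimmed mean of all genes, an alternative to the class total, lay at a log2 ratio of -0.39 in Tnp1-high and -0.31 in Tnp1-low spermatids, and between -0.05 and -0.03 elsewhere. Scaled by it, the median was 0.38 for the Tex genes against 0.36 for all genes in Tnp1-high spermatids, and 0.36 against 0.32 in Tnp1-low spermatids.

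Tex37 stood at 92.5 CPM in KO and 53.2 CPM in WT spermatogonia, a fold of 1.74 (1.53 to 1.98). This is a stage in which it is far below its highest level, and Leydig-like cells had 93.4 CPM in KO and 64.0 CPM in WT of it, a fold of 1.46 (1.26 to 1.68). With the estimated free RNA taken off, Tex37 in spermatogonia was at 37.2 CPM in KO and 19.9 CPM in WT, below the minimum of 50 CPM, while its log2 ratio was 0.76, against 0.74 before. The 9 Tex genes left at 50 CPM had 0 past 1.5-fold. Free RNA was estimated from Leydig cell genes, whose level in spermatogonia, relative to the whole library, was 6.83% in KO and 10.3% in WT. Protamine genes and Tnp1, which mark spermatids, gave higher shares there, at 12.7% in KO and 17.4% in WT. No subtraction was run with the higher shares, so whether spermatogonia had Tex37 RNA of their own was not tested. The next value below the 1.5-fold limit was Tex37 again, in Tnp1-low spermatids, with a fold of 1.49 (1.402 to 1.59). There its log2 ratio of 0.55 turned to -0.15 at a Leiden resolution of 2 and to -0.18 with each library clustered separately.

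Tex50 was higher in KO in both elongating stages and in each germ cluster compared. It stood at 118 CPM (116 to 119.7) in KO and 87.2 CPM (84.7 to 89.8) in WT Tnp1-high spermatids, and at 102 CPM (97.2 to 106) in KO and 65.0 CPM (61.5 to 68.6) in WT Tnp1-low spermatids. The fold in the Tnp1-low stage was 1.56 (1.46 to 1.68). Among 14 germ clusters with at least 50 cells in each library, Tex50 was higher in KO in 14, and in the 6 of these with a mean of 50 CPM or more the fold ran from 1.27 to 1.91. The clusters are parts of the same 2 libraries and are not replicates. How many of all genes were this one-sided was not counted. Over all barcodes Tex50 had 18995 counts in KO and 7517 counts in WT, and the part of free RNA in the clusters below 50 CPM was not tested. In the cluster that was mostly WT cells it was at 109 CPM in KO and 78.2 CPM in WT, and in the evenly filled Tnp1-low cluster at 10.7 CPM in KO and 5.78 CPM in WT. In classes named as somatic, Tex50 was also higher in KO, with 12.4 CPM in KO and 6.53 CPM in WT Leydig-like cells. Sertoli-like cells had 85.7 CPM in KO and 43.8 CPM in WT of Tex50. The same class had 38251 CPM in KO and 24876 CPM in WT of the spermatid gene Tnp1. How much of its Tex50 count was spermatid RNA was not tested. Tex50 lies within Ankrd45 on the opposite strand. Ankrd45 stood at 57.7 CPM in KO and 54.8 CPM in WT Tnp1-high spermatids, a fold of 1.05 (1.01 to 1.10). Clustering at a Leiden resolution of 2, in place of 1, placed Tex50 lower in KO in Tnp1-low spermatids, with a log2 ratio of -1.17. Clustering each library separately gave -0.79. At the resolution of 2, a cluster of 1175 KO and 48 WT cells stood at 11537 CPM of Tnp1, just past the limit of 10000 CPM. A cluster of 51 KO and 1501 WT cells stayed below it, at 4165 CPM. The Tnp1-low stage then held 1559 KO and 2284 WT cells, against 2302 KO and 2267 WT cells as reported. In Tnp1-high spermatids the log2 ratio of Tex50 stayed between 0.36 and 0.80 under all settings tried.

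The other elongating genes were divided within clusters. Tex37, Tex46 and Tex48 were each higher in KO in 13 of the 14 clusters, and Tex35 and Tex45 each in 12. Tex44 was higher in KO in 11 clusters, Tex55 in 10 and Tex52 in 5. At a mean of 50 CPM or more, Tex55 was higher in KO in 3 of 7 clusters and Tex52 in 1 of 4. Tex9 and Tex38 leaned the other way, each higher in KO in 1 of 14. At a mean of 50 CPM or more, Tex38 was measured in only 2 clusters, with folds of 0.922 and 0.954. Tex9 reached that level in 7 clusters, with folds from 0.787 to 0.988. Tex9 shares 11632 bases with Mns1 on the opposite strand, and without a stated strand setting their reads may not be separable. Mns1 stood at 35.4 CPM in KO and 69.8 CPM in WT Tnp1-high spermatids, and at 794 CPM in KO and 789 CPM in WT round spermatids. Differences in the same direction were present in cells that should lack these genes. Sertoli-like cells had 839.5 CPM in KO and 519 CPM in WT of Tex35, and 710 CPM in KO and 427 CPM in WT of Tex37. Leydig-like cells had 51.2 CPM in KO and 34.3 CPM in WT of Tex48, and 7.61 CPM in KO and 14.5 CPM in WT of Tex9. Tnp1 stood at 4645 CPM in KO and 3859 CPM in WT Leydig-like cells, and elongating spermatids made up 61.9% of kept KO cells and 32.9% of kept WT cells. Over the germ stages, 4 genes of Leydig cells (Cyp17a1, Cyp11a1, Star and Insl3) stood at 5.07% to 6.84% of their library-wide level in KO and at 6.26% to 11.2% in WT. With the estimated free RNA taken off, the log2 ratio in Tnp1-low spermatids was 0.59 for Tex50, against 0.61 before, and 0.33 for Tex37. With the same mix of clusters in both libraries it was 0.65 for Tex50 and 0.78 for Tex37.

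**Figure D5:**
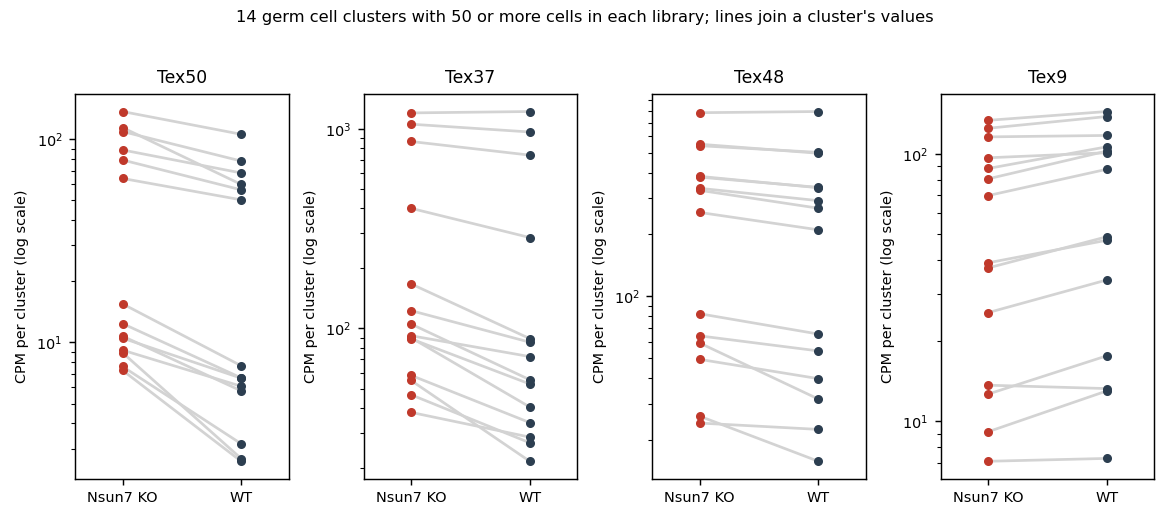
CPM (log axis) of Tex50, Tex37, Tex48 and Tex9 in 14 germ cell clusters with at least 50 cells in each library, with KO on the left and WT on the right of each panel and a line joining the values of a cluster. For Tex50 all 14 lines run down to WT, whereas for Tex9 13 of 14 run up.

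Lists of genes that work with Tex proteins were read at a mean of 10 CPM or more. The Tex14 list of 6 intercellular bridge genes had 0 past 1.5-fold among those measured in each germ stage, which were all 6 up to late spermatocytes and 1 in elongating spermatids. In early spermatocytes, Kif23, a kinesin of the midbody, stood at 371 CPM in KO and 301 CPM in WT. The Tex15 list of piRNA-directed methylation has 8 genes, of which at most 4 reached this level in any stage, and it had 0 past 1.5-fold. The Tex10 list of the PELP1 complex, with 6 genes, also had 0, and none of either list reached this level in elongating spermatids. Piwil2, a PIWI protein of that first list, stood at 238 CPM in KO and 262 CPM in WT early spermatocytes, and Mdn1, a ribosome assembly ATPase, at 181 CPM in KO and 185 CPM in WT. The Tex38 list of Zdhhc19 and Arrdc5 likewise had 0. Over the 6 stages, the share of all genes past 1.5-fold at this level ran from 0.0205% to 2.27% for higher and from 0.121% to 9.73% for lower, so a count of 0 among so few genes does not separate these lists from the background. Zdhhc19 stood at 199.7 CPM in KO and 185 CPM in WT round spermatids.

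Of the 10 detected crossover genes of the Tex11 list, 1 was lower in spermatogonia, against 2.44% of 9811 genes, and 1 lower in early spermatocytes, against 6.37% of 9182 genes. In both stages this was 1700102P08Rik, with 66.5 CPM in KO and 161 CPM in WT early spermatocytes, a fold of 0.413 (0.343 to 0.495). The same gene was among the leading genes of the Piwil1-led late spermatocyte cluster. Late spermatocytes made up 3.95% of kept KO cells and 18.6% of kept WT cells. The part of late spermatocyte RNA in its early values was not tested. Hfm1, a meiotic helicase of the same list, stood at 265 CPM in KO and 306 CPM in WT. Of the 5 genes of the Tex19.1 list, Mael was lower in Tnp1-low spermatids, with 93.3 CPM in KO and 152 CPM in WT, where 9.73% of 4070 genes were lower and 0.172% higher. Dppa4 of that list was lower in early spermatocytes, with 7.29 CPM in KO and 13.6 CPM in WT. Of the 6 genes of the Tex264 list of endoplasmic reticulum receptors, Retreg1 was higher in late spermatocytes, with 25.9 CPM in KO and 13.01 CPM in WT, against 1.33% of 7969 genes higher and 0.226% lower. Rtn3 of that list was lower in Tnp1-high spermatids, with 17.7 CPM in KO and 29.5 CPM in WT, where 8.26% of all genes were lower.

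The list of sperm doublet microtubule proteins, the company of Tex33, Tex37 and Tex43, had 19 detected genes. In late spermatocytes and in round spermatids, where all 19 were at 10 CPM or more, 0 were past 1.5-fold. Round spermatids had a background of 0.0483% of 8290 genes higher and 0.121% lower. Mns1, a filament-like protein of the flagellum, stood at 794 CPM in KO and 789 CPM in WT round spermatids, and Tekt1, a tektin, at 747 CPM in KO and 809 CPM in WT. In the other stages the median log2 ratio of the measured genes was -0.38 in spermatogonia, -0.74 in early spermatocytes, -0.46 in Tnp1-high and -0.44 in Tnp1-low spermatids. The trimmed mean of all genes lay at -0.39 in Tnp1-high and -0.31 in Tnp1-low spermatids. It lay at -0.05 in spermatogonia and -0.03 in early spermatocytes. Taken over every gene that passed the same limit of 10 CPM, the median was -0.098 in Tnp1-high and -0.048 in Tnp1-low spermatids. It was -0.033 in spermatogonia and -0.011 in early spermatocytes. In each of these stages the median of the list was lower than both values. In Tnp1-high spermatids 4 of 13 were lower and 0 higher, against 8.26% of 4878 genes lower and 0.0205% higher. In Tnp1-low spermatids 4 of 12 were lower and 0 higher, against 9.73% of all genes lower and 0.172% higher. In early spermatocytes 8 of 16 were lower and 0 higher, against 6.37% lower and 2.27% higher. In spermatogonia 5 of 14 were lower and 0 higher, against 2.44% lower and 1.1% higher. Past 2-fold lower were the tektin genes Tekt1, Tekt2 and Tekt3 in spermatogonia, and in early spermatocytes Tekt1, Tekt2, Tekt3, Tekt4, Cfap53, Enkur and Cfap161. Of these Tekt1 had the lowest fold in spermatogonia, 0.292 (0.220 to 0.381), with 12.8 CPM in KO and 43.7 CPM in WT. In early spermatocytes Enkur had the highest level of these genes, with 30.1 CPM in KO and 66.4 CPM in WT. Mns1 stood at 35.4 CPM in KO and 69.8 CPM in WT Tnp1-high spermatids, and at 8.82 CPM in KO and 67.4 CPM in WT Leydig-like cells, which should lack it. The part of free RNA in the lower values of this list was not tested.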

How the data were processed

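The files were gene by barcode matrices of raw counts, deposited by the authors for 1 Nsun7 KO and 1 WT testis library made with the DNBelab C Series kit. The counts were written with PISA 0.12, per the file headers, and the build was GRCm38, per the submitters' processing notes. The aligner, annotation, strand setting and barcode filter were not given in the sources used here.

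Cell filtering asked for 200 detected genes or more and allowed 20% of counts from mitochondrial genes. Called doublets (631 in KO, 611 in WT; Scrublet) were kept in the values reported. Both libraries were clustered together with scanpy 1.11.5 (3000 variable genes, 40 components, Leiden resolution 1), leaving out the Tex genes and Nsun7, and 26 clusters were named from marker lists. Clusters of mostly called doublets, of low counts or led by another type's genes stayed unnamed (1846 KO and 2104 WT cells). Elongating clusters were split at 10000 CPM of Tnp1, a limit set after seeing the data, as were the minimum of 50 cells in each library for values within a cluster, the count of CpG and the choice of genes drawn in panels. Counts were summed per library and stage. Ratios used to count genes past 1.5-fold add 5 CPM to both levels. Intervals came from scipy 1.17.1, and the calculations were tested on simulated data. Genes with a mean of 50 CPM or more in a germ stage were named with their values there, along with every Tex gene past 1.5-fold and, from each partner list, at most 4 genes by level and those past 2-fold. Of the 32 Tex genes, 31 were matched in GENCODE M21 and Tex55 in RefSeq. The members, the partner lists and the marker lists were chosen with earlier results of these data known.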

Additional observations from a re-analysis of the deposited data

How the results depend on the processing

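No paired analysis was possible because each genotype had 1 library, so no replicate could be left out either. The number of Tex genes highest in the same stage in both libraries stayed between 27 and 31 of 31 over the alternatives run, and trimmed mean scaling was not applied to it. Under the stricter filter it was 31 with only 5 stages left, and 26 genes kept their reported stage in each library. Separate clustering kept 26 in KO and 31 in WT. Tex11 was highest in early spermatocytes in KO with separate clustering and with an equal cluster mix. The cause of the following shifts was not tested. With separate clustering, round spermatids of KO included a cluster at 49008 CPM of Tnp1, while a WT cluster at 43211 CPM was named Tnp1-high. Clustering each library on its own gave median log2 ratios of -0.21 in spermatogonia, -0.37 in round spermatids (all genes -0.41), -0.057 in Tnp1-high and -0.12 in Tnp1-low spermatids, with 3, 15 of 24, 2 and an unchanged 1 gene past 1.5-fold, and 1 in late spermatocytes. Over all genes, 521 of 4314 were higher and 159 lower past 1.5-fold in spermatogonia. Round spermatids had 572 of 3654 higher and 1426 lower, and late spermatocytes 156 of 3740 higher and 11 lower. Tnp1-high spermatids had 1 of 2008 higher and 254 lower, and Tnp1-low spermatids 1 of 1533 higher and 124 lower. The Leiden resolution of 2 gave 2 genes in spermatogonia, 2 in round and 0 in Tnp1-low spermatids, where the median was -0.16. Over all genes at that resolution, 168 of 4183 were higher and 54 lower in spermatogonia. Round spermatids had 32 of 3759 higher and 2 lower. Tex50 in Tnp1-low spermatids reversed to -1.17 at that resolution and to -0.79 with separate clustering, and Tex37 there turned to -0.15 and -0.18. The Tnp1-low stage held 1559 KO and 2284 WT cells at that resolution, and 1738 KO and 2381 WT cells with separate clustering. The stricter filter (500 genes, 10% mitochondrial counts) gave 9 of 18 genes in early spermatocytes, where 50.7% of all genes passed, 1 in late spermatocytes, 1 in round and 0 in Tnp1-low spermatids. It left 30 KO and 78 WT spermatogonia, too few KO cells for a value. In early spermatocytes it turned Tex15 to -0.31 and Tex14 to -0.51. The cluster named early spermatocytes under that filter had 37.5% called doublets, against 1.58% as reported. Free RNA subtraction gave 0 genes in spermatogonia, where 9 in place of 11 genes were left at 50 CPM and Tex37 fell below that minimum with a log2 ratio of 0.76, and 1 in late spermatocytes. That subtraction used the shares of Leydig cell genes, and the higher shares of spermatid genes in spermatogonia were not tried. Allowing the Tex genes in clustering gave 1 in late spermatocytes and 2 in Tnp1-low spermatids, and an equal cluster mix gave 2 in Tnp1-low spermatids. Trimmed mean scaling gave medians of 0.38 in Tnp1-high and 0.36 in Tnp1-low spermatids, with 1 and 2 genes. A minimum of 10 CPM gave 3 genes in spermatogonia, 3 in early and 1 in late spermatocytes, with medians of 0.13 in late spermatocytes and -0.059 in Tnp1-high spermatids. A minimum of 200 CPM gave 0 genes in spermatogonia and in Tnp1-low spermatids, and a prior of 20 CPM gave 0 in Tnp1-low spermatids. The other 116 summary values stayed near the reported ones, as did 246 of the values of single genes, while 88 moved by more than their counting interval. Early spermatocytes, with 314 KO cells, had the fewest counts and the widest intervals.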
